A study of Rattus with 108 samples.

Results

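Muscle taken at 0 day from rats of 2 postsurgical pain models was compared between the sites that the models operate on. The members are 8 of the 108 RNA sequencing libraries of the study, 4 of paw muscle and 4 of retraction-site muscle, chosen by tissue, model and time. Lateral paw incision (LPI) was used as the model of acute pain. Skin/muscle incision and retraction (SMIR) was used as the model of lasting pain. The study followed skin, muscle and dorsal root ganglia (DRG, which hold the cell bodies of sensory neurons) from 0 day onward, and no treatment beyond the 2 surgical models is labelled. The 0 day libraries are the starting point of both time courses, and the labels do not say whether these rats were operated on in any way. The name of the muscle, the strain, the age and the sex are not given in the labels used here. Rats of both models were perfused with saline before tissue was taken, per the labels' protocols, which also speak of pools of several rats while the labels number single animals. Libraries are called rats below, and p-values measure the spread between libraries, whether these stand for rats or pools. Paw muscle and retraction-site muscle came from different rats, and no batch is labelled, so site, animals and any batch cannot be told apart.

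Skeletal muscle is made of long fibres with many nuclei. The RNA of these fibres is dominated by a few genes for contractile proteins and for energy metabolism, so a small number of genes takes a large part of the reads. Muscles of different regions differ in their fibre types, and a dissected piece of muscle also holds tendon, fascia, fat, vessels, nerve, blood and immune cells. Because the measurement is of bulk tissue, fewer muscle fibres in a piece and less of their RNA per fibre cannot be told apart.

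The files pair no gene ID with a name. Muscle was therefore described through groups of genes defined on other libraries of the study. Muscle-enriched genes had on average at least 5 CPM (counts scaled to a common library total) in muscle and at least 8 times the level of skin and of DRG, after adding 0.1 CPM, at the last time point of each model, which was 10 days in LPI and 32 days in SMIR. The same rule gave skin-enriched and DRG-enriched genes. None of the 8 libraries compared here took part in that choice, although the later libraries come from the same 2 sites. There were 148 muscle-enriched, 515 skin-enriched and 959 DRG-enriched genes.

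The 4 LPI libraries had total counts of 21792696 to 26913266 and the 4 SMIR libraries of 37219961 to 41654479, so the SMIR libraries were deeper in every case. Between 13772 and 14024 genes reached 1 CPM in LPI muscle, against 12160 to 12623 in SMIR muscle. The deeper libraries thus held fewer genes above that level. The 10 most abundant genes of each library took 15.4% to 22.6% of counts in LPI and 27.9% to 30.2% in SMIR.

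Muscle-enriched genes took a far smaller and far less even share of counts in LPI muscle than in SMIR muscle. Their share was 0.145%, 5.46%, 6.13% and 15.3% in LPI rats 1, 2, 3 and 4. In SMIR rats 1 to 4 it was 28.6%, 26.9%, 26.3% and 25.3%. All 4 SMIR libraries lay above all 4 LPI libraries, and the means were 26.8% ± 1.36 (SD, n = 4) in SMIR and 6.75% ± 6.27 in LPI. LPI rat 1 stood apart, and in these genes it goes against its tissue label. Over the genes tested in muscle it did not: its Spearman correlation was 0.870 to 0.943 with the other LPI muscle libraries and at most 0.850 with skin. Its share lay nearer to the 0.0514% to 0.0545% of these genes in SMIR skin than to that of any other uninjured muscle library. In LPI DRG at 0 day these genes took 0.0242% to 0.125%, so such a low share is not particular to skin. In LPI rat 1, 73 of the 148 genes were under 1 CPM, and 21 had no count at all. The median muscle-enriched gene stood at 1.03 CPM in this library, at 57.5, 40.9 and 155 CPM in LPI rats 2, 3 and 4, and at 235 to 323 CPM in the SMIR libraries. CPM of single genes are on library sizes scaled by TMM, a method that corrects for a few genes taking up a large part of the reads, while shares are of the plain totals.

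Genes of other tissues and of the response to injury took larger shares in LPI muscle. Skin-enriched genes took 0.0704%, 0.0785%, 0.0675% and 0.0469% of counts in LPI rats 1 to 4 and 0.0166%, 0.0292%, 0.0189% and 0.0218% in SMIR rats 1 to 4. DRG-enriched genes took 0.534%, 0.605%, 0.513% and 0.524% in LPI and 0.265%, 0.302%, 0.281% and 0.294% in SMIR. Neither range overlapped between the sites. Both shares were small beside those in the tissues of their names, which were 9.14% or more of the counts outside muscle-enriched genes for skin-enriched genes in skin at 0 day. The shares also stayed apart when counts of muscle-enriched genes were left out of the total: skin-enriched genes then took 0.0553% to 0.0831% in LPI and 0.0232% to 0.0399% in SMIR, and DRG-enriched genes 0.534% to 0.640% and 0.372% to 0.413%.

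A group of 270 genes had risen at least 4-fold in muscle 2 days after surgery in both models, measured against the last time point of the same model after adding 0.5 CPM. These genes took 0.613%, 0.581%, 0.461% and 0.334% of counts in LPI rats 1 to 4 at 0 day. In SMIR rats 1 to 4 they took 0.0765%, 0.118%, 0.0887% and 0.129%. Every LPI library lay above every SMIR library, and also when counts outside muscle-enriched genes served as the total (0.394% to 0.615% against 0.107% to 0.172%). Another 84 genes had fallen at least 4-fold in both models, 19 of them muscle-enriched. They took 1.61%, 2.80%, 2.42% and 5.47% of counts in LPI and 3.58%, 3.10%, 4.00% and 3.39% in SMIR, and here the sites overlapped, since LPI rat 4 was the highest of the 8.

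**Figure D1:**
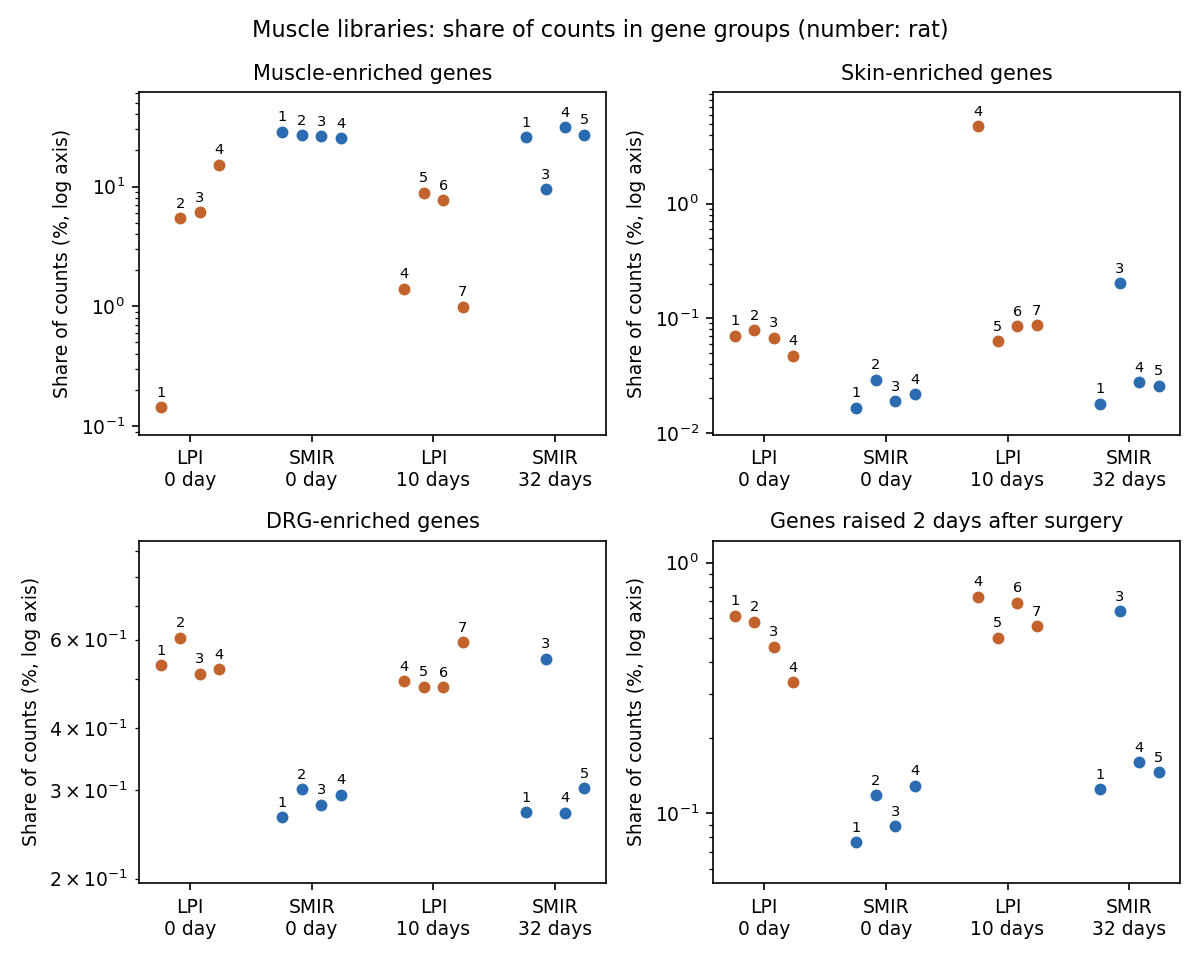
Share of counts (%, log axis) taken by muscle-enriched, skin-enriched and DRG-enriched genes and by genes raised 2 days after surgery, 1 point per muscle library, labelled with its rat number, for LPI at 0 day and 10 days (orange) and SMIR at 0 day and 32 days (blue). At 0 day the 2 sites do not overlap in any panel, and LPI rat 1 is far below the others in muscle-enriched genes, at 0.145%.

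Site differences of single genes were tested with edgeR's quasi-likelihood test over all 15091 genes that passed the filter on low counts, with Benjamini-Hochberg adjusted p under 0.05. Of these, 4565 were higher in SMIR muscle (30.2%) and 4594 were lower (30.4%), which is 60.7% called in all. Without LPI rat 1, 4185 were higher and 4374 lower. The median absolute log2 fold change among called genes was 1.15. By at least 2-fold, 2463 were higher and 2881 lower. In TMM-scaled CPM, 4483 genes (29.7%) had every SMIR library above every LPI library, and 4366 (28.9%) the reverse. The split between the directions rests on the scaling. With plain library sizes in place of TMM, 1500 genes were higher and 9178 lower in SMIR, and the median of all genes moved from −0.04 to −0.88. The TMM factors were 1.27 to 1.43 in LPI libraries and 0.705 to 0.792 in SMIR libraries.

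Of the 148 muscle-enriched genes, all of which passed the filter, 49 were called higher in SMIR muscle and 0 lower by edgeR (70 had an unadjusted p under 0.05, and DESeq2 called 70 higher and 0 lower). Their median log2 fold change was 2.32, beside −0.04 for all genes tested, and 134 were above 0. The called share, 33.1%, is near the 30.2% of all genes called higher, whereas 101 of the 148 had every SMIR library above every LPI library, and 0 the reverse. Within LPI the median standard deviation of a muscle-enriched gene on the log2 scale was 3.46, or 1.09 without rat 1, against 0.22 within SMIR. For all tested genes the values were 0.30, 0.27 and 0.22. The number called higher depended on each library: it was 94, 14, 19 and 80 when LPI rat 1, 2, 3 or 4 was left out, and 22, 28, 25 and 26 when SMIR rat 1, 2, 3 or 4 was left out. Without LPI rat 1 the median was 1.87, and 4 genes were then called lower. A fit of all muscle groups called 76 higher. With library sizes as scaling 23 were called higher, with a median of 1.51. When the muscle-enriched genes themselves set the scaling, 0 were higher and 6 lower, or 17 and 39 without LPI rat 1.

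Among the other groups, members called lower in SMIR outnumbered those called higher in the skin-enriched, DRG-enriched and raised genes, but not in the fallen genes. Of all genes tested, 30.4% were lower and 30.2% higher. Of 515 skin-enriched genes 134 passed the filter in muscle, of which 15 were higher in SMIR and 55 lower, with a median log2 fold change of −0.97. Of 959 DRG-enriched genes 479 passed, with 69 higher and 156 lower and a median of −0.63, so their share of lower calls is near that of all genes. Genes that rose 2 days after surgery gave the most one-sided split: of 226 tested, 6 were higher in SMIR and 144 lower, the median was −1.40, and 136 had every LPI library above every SMIR library (28.9% of all genes). The genes that fell after surgery were mixed, with 27 higher and 18 lower of 84 and a median of 0.86. Without LPI rat 1, 55 skin-enriched, 148 DRG-enriched and 132 raised genes were lower in SMIR. Leaving out any single library kept the lower calls of the raised genes between 129 and 159, while the higher calls went to 15 in the fallen and 9 in the skin-enriched genes without LPI rat 2 and to 3 in the raised genes without LPI rat 2 or 3. With plain library sizes as scaling, 7 skin-enriched genes were higher and 71 lower, 29 and 254 DRG-enriched, 1 and 187 raised and 17 and 21 fallen. A gene of these groups that passed the filter through its LPI level alone had to differ, so the counts describe the groups and are no test of them.

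The difference of muscle content ran within LPI as well as between the sites. When the muscle-enriched share of each library was added as a covariate, 6571 of 15091 genes were called, 3393 higher and 3178 lower. The 148 muscle-enriched genes then split into 40 higher and 26 lower with a median of 0.22. That split is near the split of all genes in this fit. Of 134 skin-enriched genes 8 were higher and 34 lower, and of 226 genes raised after surgery 3 were higher and 99 lower. The shares of the sites do not overlap, so this fit separates site from muscle content only through the spread within sites, and the part of muscle content in single calls was not tested further. The gene-length trend was the Spearman correlation of a library's levels, relative to each gene's mean over the libraries, with gene length. It ran from −0.020 to 0.203 in LPI and from −0.084 to −0.019 in SMIR. With this trend as a covariate 8955 genes were called, 4641 higher and 4314 lower, and 94 of the 148 muscle-enriched genes were higher. With the SMIR libraries thinned to the LPI depth, 9047 were called.

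Muscle-enriched genes did not all follow the same order over the LPI libraries. In 82 of the 148, the order from high to low was rat 4, 2, 3, 1, and in 61 it was rat 4, 3, 2, 1, while 5 had other orders. The 82 genes that were higher in rat 2 than in rat 3 took 58.6%, 56.05%, 25.0% and 46.5% of the muscle-enriched counts in LPI rats 1 to 4. In SMIR muscle at 0 day, which was not used to choose them, they took 18.0%, 14.7%, 20.6% and 16.4%. The libraries of the last time point helped to define the 148 genes but were not used for this split. There the same genes took 53.6%, 39.6%, 17.2% and 49.2% in LPI rats 4 to 7 and 24.7%, 17.1%, 12.7% and 25.1% in SMIR rats 1, 3, 4 and 5. At 0 day LPI rats 1 and 4, which had no part in the split, lay above the SMIR range. Rats 2 and 3 did too, but their own levels made the split. At the last time point 3 of 4 LPI libraries lay above the SMIR range of that time, while LPI rat 6 lay within it.

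Site differences of these 2 sets were unequal. Of all genes tested, 30.2% were called higher in SMIR and 29.7% had every SMIR library above every LPI library. Of the 82 genes, 11 were called higher in SMIR, the median log2 fold change was 1.68, and 40 had every SMIR library above every LPI library. In 20 of them LPI rat 4 lay above all 4 SMIR libraries, as in an unnamed gene with 8552 CPM in LPI rat 4 and 1654 to 3551 CPM in SMIR. Of the other 66 genes, 38 were called higher, the median was 3.01, and 61 had every SMIR library above every LPI library. Because rats 2 and 3 chose the sets, these values are a description with no test. The most abundant of the 66, and of all muscle-enriched genes in SMIR, stood at 13.6, 2610, 7356 and 12044 CPM in LPI rats 1 to 4 and at 63331 to 79673 CPM in SMIR, a log2 fold change of 3.70 (SE 1.40, edgeR adjusted p = 0.0467). All 4 SMIR values were above the highest LPI value.

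**Figure D2:**
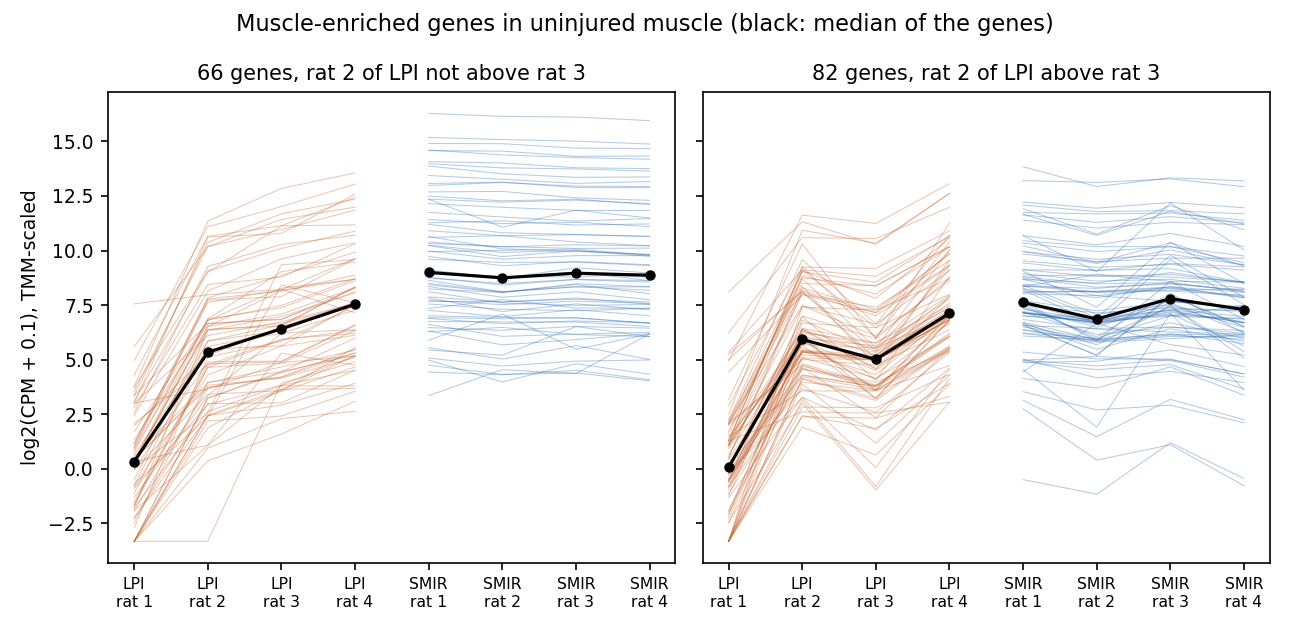
log2(CPM + 0.1) on TMM-scaled library sizes of the 148 muscle-enriched genes in the 8 uninjured muscle libraries; thin lines link the values of a gene within a site, and black points are the median of the genes shown. Left, the 66 genes not higher in LPI rat 2 than in rat 3. Right, the 82 that were, of which 40 have every LPI value below every SMIR value (29.7% of all genes). In 20 of the 82, LPI rat 4 is above all SMIR values.

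Composition at the top of the libraries differed as well. Over the 8 libraries 28 genes held more than 1% of counts in at least 1 library. Among them 10 were muscle-enriched and took 0.0339%, 2.18%, 3.72% and 6.93% of counts in LPI rats 1 to 4 against 16.4% to 18.5% in SMIR. Of these 10, 6 were called higher in SMIR (30.2% of all genes) and 9 had every SMIR library above every LPI library (29.7% of all genes).

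Another 11 abundant genes were not muscle-enriched and were all called higher in SMIR (30.2% of all genes). Their log2 fold changes were 1.31 to 3.13, with no overlap between sites. Together they took 10.5%, 11.9%, 14.5% and 13.3% in LPI rats 1 to 4 and 22.4% to 24.0% in SMIR. As a sum they were abundant outside muscle too, with 4.07% to 5.07% of counts in LPI skin, 6.01% to 6.82% in SMIR skin and 8.31% to 11.7% in LPI DRG. This did not hold for every gene. Those with log2 fold changes of 3.13 and 3.10 averaged 0.00625% and 0.0346% in LPI skin and 0.0202% and 0.0238% in SMIR skin. In skin 4 of the 11 were higher and 2 lower in SMIR, where 31.7% and 29.7% of all genes were, so the higher calls are near that share. At the last time point of muscle, 9 of the 11 were higher in SMIR and 0 lower by edgeR (17.2% and 13.9% of all genes).

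The remaining 7 abundant genes had a fitted level above that of SMIR in LPI muscle, and 6 of them were called (30.4% of all genes were lower in SMIR). They took 15.1%, 7.89%, 9.57% and 4.29% of counts in LPI rats 1 to 4 and 1.02% to 1.06% in SMIR, so LPI rat 1, with the lowest muscle-enriched share, had the highest share of these genes. The 3 most abundant of the 7 varied together: their summed share was 12.4%, 4.81%, 6.55% and 1.16% in LPI and 0.202% to 0.477% in SMIR, with log2 fold changes of −3.57 to −3.45. In skin at 0 day the same 3 genes differed in the other direction, with 0.00957% to 0.0418% of counts in LPI and 0.140% to 0.189% in SMIR. All 3 were called higher in SMIR skin (31.7% of all genes). At the last time point of muscle they took 1.74% to 16.2% in LPI and 0.0697% to 2.09% in SMIR, where the sites overlapped and none of the 3 passed edgeR's test (adjusted p of 0.121 to 0.131).

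**Figure D3:**
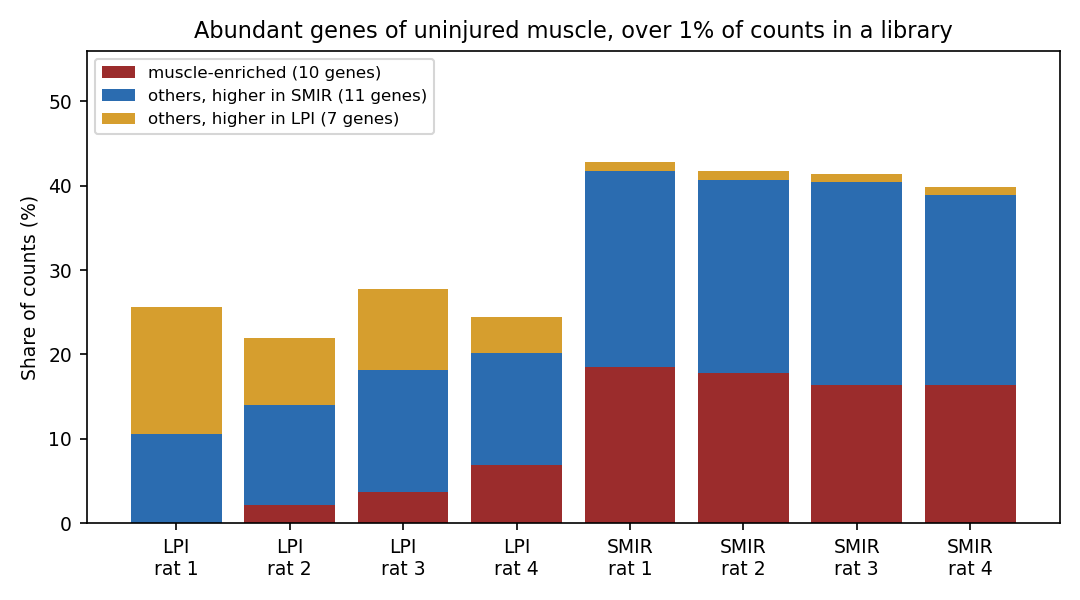
Share of counts (%) in each uninjured muscle library taken by the 28 genes with over 1% of counts in at least 1 library, stacked by kind: muscle-enriched, others higher in SMIR and others higher in LPI. The last kind takes 4.29% to 15.1% in LPI and about 1% in SMIR.

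Some genes were detected at a single site. With at least 50 counts in every library of a site and at most 3 counts in all over the other, 15 genes were found in LPI muscle alone and 5 in SMIR muscle alone; 13 and 3 of them had no count at the other site. None of the 20 was muscle-enriched. The 15 genes summed to 586, 201, 361 and 83.8 CPM of plain totals in LPI rats 1 to 4. In later, separate libraries they summed to 55.8 to 318 CPM in LPI at 10 days and to 1.00 to 7.22 CPM in SMIR at 32 days. All 15 were tested at the last time point, where 14 were again lower in SMIR and 0 higher, with a median log2 fold change of −4.95 (13.9% of all genes tested there were lower). Of the 5 SMIR genes 4 could be tested and 2 were again higher (17.2% of all genes were higher). In skin at 0 day, 10 of the 15 were tested, of which 5 were lower in SMIR and 1 was higher (29.7% and 31.7% of all genes). On average 7 of the 15 reached 1 CPM in LPI skin and 5 in SMIR skin.

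From the 4050 genes higher and 3585 lower in SMIR that passed the test, had sites that did not overlap and had at least 50 counts in every library of the higher site, the 2 with the largest change in each direction are given by ID. ENSRNOG00000057133 had 149, 257, 269 and 255 counts in SMIR rats 1 to 4 and 0 in all LPI libraries. It was at least 349.7-fold higher in SMIR, against a floor of 3 counts over the group (edgeR adjusted p = 7.35e-05). ENSRNOG00000017531 had 79, 358, 192 and 272 counts in SMIR and 0 in LPI, at least 335-fold higher (adjusted p = 3.79e-04). In uninjured muscle both genes had no count in any LPI library and had counts in every SMIR library. In skin at 0 day ENSRNOG00000017531 was present at both sites, with 3.17 to 8.68 CPM in LPI and 18.8 to 24.9 CPM in SMIR (log2 fold change 2.03, SE 0.27, adjusted p = 1.07e-04). The second gene differed between sites at the last time point too, with 5.58 to 15.7 CPM in SMIR at 32 days and at most 0.128 CPM in LPI at 10 days (log2 fold change 8.05, SE 1.01, adjusted p = 0.00553); the first reached 1.41 CPM in an LPI library and was at 0 in a SMIR library there, and did not pass (adjusted p = 0.393).

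In the other direction, ENSRNOG00000005286 had 10393, 1040, 4021 and 116 counts in LPI rats 1 to 4 and 0 in SMIR, at least 4264-fold lower in SMIR (edgeR adjusted p = 0.00609). ENSRNOG00000021217 had 928, 910, 816 and 394 counts in LPI and 0 in SMIR, at least 889-fold lower (adjusted p = 9.24e-05). The former varied widely within LPI, highest in rat 1 and lowest in rat 4, and without rat 1 the bound was at least 2013-fold, while the latter was more even. At the last time point ENSRNOG00000005286 had 6.00 to 135 CPM in LPI and 0 CPM in all SMIR libraries (adjusted p = 0.0147), and ENSRNOG00000021217 had 4.32 to 22.6 CPM in LPI and 0.160 to 2.92 CPM in SMIR (adjusted p = 0.0314). In skin at 0 day ENSRNOG00000005286 went the other way, with 64.4 to 125 CPM in SMIR and 13.8 to 28.6 CPM in LPI, a log2 fold change of 2.28 (SE 0.29, adjusted p = 2.36e-04), and the difference between the tissues was itself called (adjusted p = 4.57e-05). ENSRNOG00000021217 was lower in SMIR skin too, by a log2 fold change of −1.05 (SE 0.29, adjusted p = 0.00888).

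**Figure D4:**
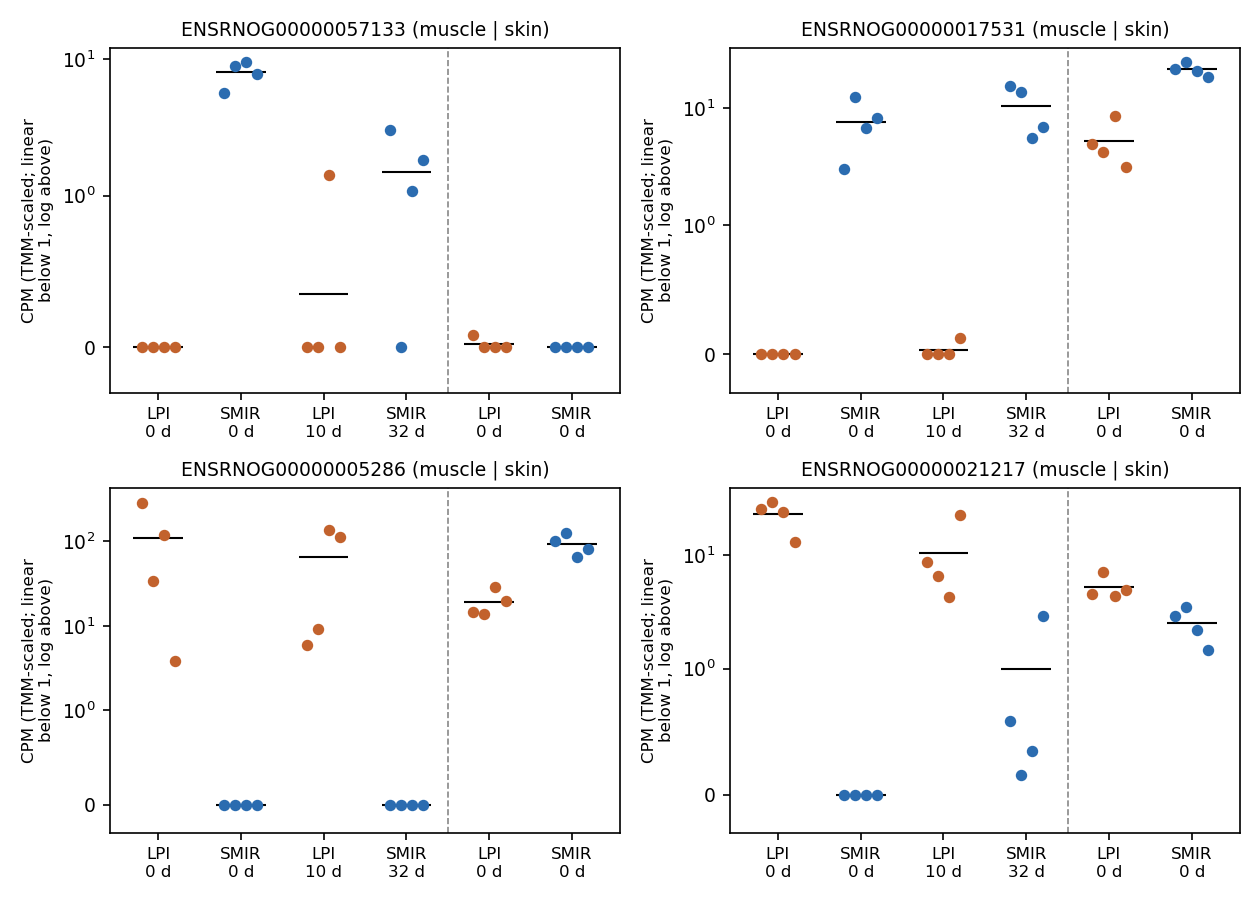
CPM on TMM-scaled library sizes of the 4 genes given by ID, 1 point per library and a line at the group mean, in muscle at 0 day and at the last time point and, right of the dashed line, in skin at 0 day (LPI orange, SMIR blue; axis linear below 1 CPM and logarithmic above). ENSRNOG00000005286 is at 0 in all SMIR muscle libraries and higher in SMIR than in LPI in skin.

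Whether the site difference seen in muscle was also present in skin of the same 2 sets of rats was tested next. In skin at 0 day 9878 of 16070 genes were called (61.5%), 5102 higher and 4776 lower in SMIR. Among 14444 genes tested in both tissues, 1241 were higher in SMIR in both and 1414 lower in both. Another 1578 were lower in SMIR muscle and higher in SMIR skin, and 1485 were higher in muscle and lower in skin. The 1241 genes are 28.4% of those higher in muscle and 26.6% of those higher in skin. Across genes the log2 fold changes of the 2 tissues had a Pearson correlation of 0.05 and a Spearman correlation of −0.03. A direct test of the muscle difference minus the skin difference called 9868 of 16909 genes (58.4%), 4402 higher (26%) and 5466 lower (32.3%). Among them were all 3063 genes with opposite calls and 1167 of the 2655 with the same call. Opposite calls from the same libraries all but fix the outcome of the direct test, so the 3063 add no support.

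The direct test was read in the gene groups beside all genes, of which it called 26% higher and 32.3% lower, or 58.4%. In skin at 0 day 31.7% of all genes were higher and 29.7% lower in SMIR. Genes raised 2 days after surgery were lower in SMIR muscle but on balance higher in SMIR skin, where 127 were higher and 40 lower of 238 with a median of 0.89, and the direct test called the muscle difference below the skin difference in 181 of 254 and above it in 5, or 73.2%. DRG-enriched genes had 215 higher and 61 lower of 513 in SMIR skin, with a median of 0.72, and the direct test called 260 of 609 lower and 46 higher, or 50.2%. Skin-enriched genes had a median of −0.97 over the 134 tested in muscle and of −0.91 over the 507 tested in skin, and the direct test called 59 of 507 higher and 101 lower, or 31.6%. Of the muscle-enriched genes 66 could be tested in skin, where 30 were higher and 7 lower; the direct test called 15 of 148 higher and 4 lower, or 12.8%.

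A small set differed strongly and in the same direction in both tissues. At a log2 fold change of at least 2 in each, 84 genes were higher in SMIR muscle and skin and 76 were higher in LPI muscle and skin, 3 of the former being muscle-enriched and 6 of the latter skin-enriched. In separate rats at the last time point, 56 of 82 tested genes of the first set were again higher in SMIR muscle. Of the 82, 0 were lower, with a median of 2.76, and 17.2% of all genes were higher in SMIR muscle then. In skin, 48 of 76 were higher in SMIR and 0 lower, with a median of 2.39 (7.67% of all genes were higher in SMIR skin then). Of the second set, 41 of 73 were lower in SMIR muscle and 37 of 75 lower in SMIR skin, and 0 higher in either. The medians were −3.02 and −1.42. Of all genes, 13.9% were lower in SMIR muscle then and 4.92% in SMIR skin. The sets were chosen partly by their muscle calls at 0 day. Of all genes with such a call and tested at both times, 52.6% of the higher and 40.8% of the lower were called again in muscle. In DRG of the same rats at 0 day, by contrast, edgeR called 0 genes of 15979 (0%), with 2120 at an unadjusted p under 0.05, 213 called by DESeq2 and 3325 when all DRG groups shared a fit. The medians of the sets in DRG were 0.68 and 0.19. A DRG library, SMIR rat 4, held 13.7% of its counts in muscle-enriched genes and 3.70% in DRG-enriched genes, where the other 3 SMIR libraries held at least 18.9%, and 1 gene was called without it. The DRG came from partly different cervical levels in the 2 models.

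Among the set higher in LPI, 9 of 76 genes had a partner in the set with nearly the same counts in every library of uninjured muscle (within 0.15 on the log2 scale), and 2 of 84 in the other set. Such pairs may share reads, since how the authors counted reads of near-identical copies was not given, and their levels are uncertain.

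The site difference of uninjured muscle recurred at the last time point, in libraries of other rats, 32 days after SMIR and 10 days after LPI. There 4753 of 15291 genes were called (31.1%), 2623 higher and 2130 lower in SMIR. Among 14824 genes tested at both times, 2374 of the 4517 higher at 0 day were higher again (52.6%) and 2 lower, and 1846 of the 4524 lower at 0 day were lower again (40.8%) and 2 higher. Read from the later libraries, 90.7% of genes higher and 88.7% of genes lower there had the same call at 0 day. Of the genes called at 0 day, 95.3% had the same sign, and across genes the log2 fold changes had a Pearson correlation of 0.83 and a Spearman correlation of 0.85. Genes share their libraries, so these are descriptions of 2 sets of 8 libraries.

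**Figure D5:**
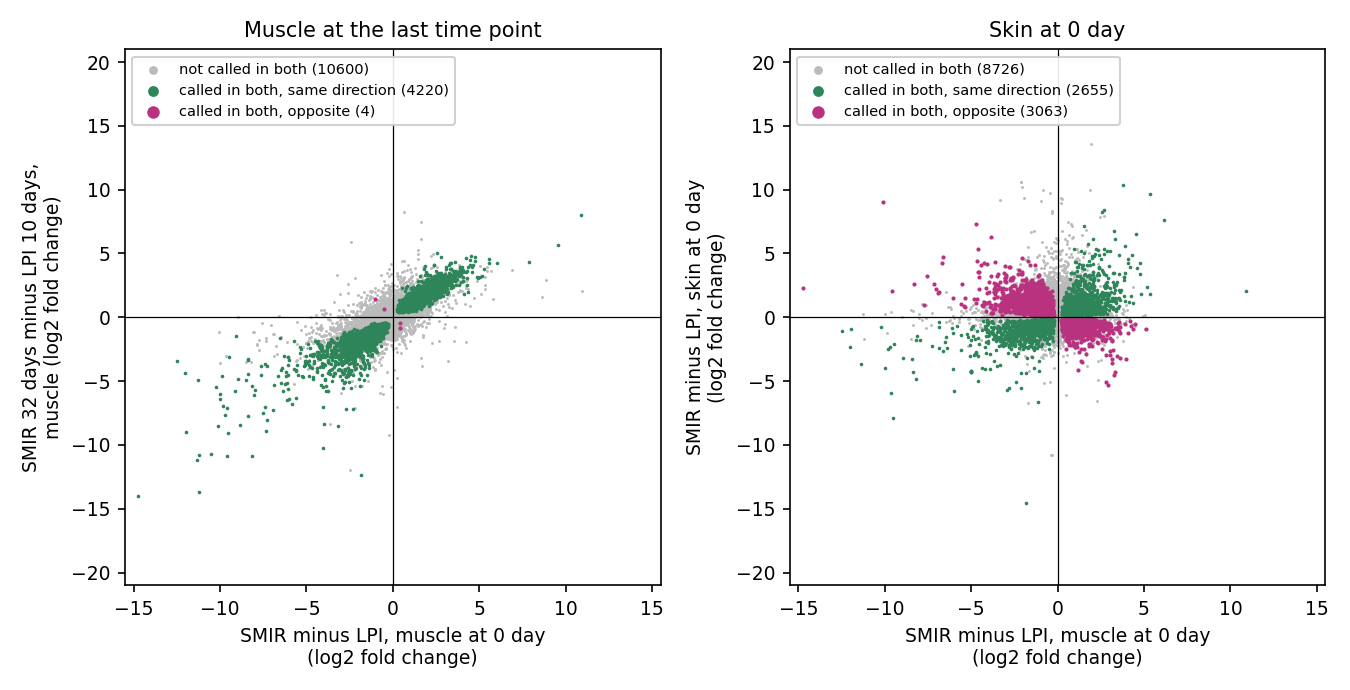
Log2 fold change of each gene between sites in uninjured muscle (x axes, SMIR minus LPI) against the same difference in muscle at the last time point (left) and in skin at 0 day (right); green points were called in both in the same direction, magenta points in both in opposite directions and grey points not in both. On the left 4 genes are opposite, on the right 3063.

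The later comparison was less stable than that at 0 day. Its 4753 calls became 8052 without SMIR rat 3, whose muscle-enriched share was 9.49% where the other 3 SMIR libraries at 32 days held 25.9% to 31.3%. They became 2069, 2468 and 2375 without LPI rat 4, 6 or 7, and 2061, 2708 and 2204 without SMIR rat 1, 4 or 5. LPI rat 4 at 10 days held 4.74% of its counts in skin-enriched genes, against 0.0631% to 0.0868% in the other 3. At 0 day the count of 9159 stayed between 8066 and 9995 whichever library was left out. Muscle-enriched shares in LPI muscle were low and uneven at 10 days too, at 1.40%, 8.86%, 7.69% and 0.992% in rats 4 to 7, but these libraries helped to define the group.

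Whole libraries were also compared. Over the genes tested in muscle, the Spearman correlation between libraries was 0.976 to 0.985 within SMIR muscle and 0.870 to 0.979 within LPI muscle. Between the sites it was 0.726 to 0.909. LPI muscle correlated with LPI skin at 0.721 to 0.803 and with SMIR skin at 0.774 to 0.850, and SMIR muscle with SMIR skin at 0.690 to 0.739. The low values between the sites were those of LPI rat 1, at 0.726 to 0.769 with SMIR muscle. These lay below its 0.840 to 0.850 with SMIR skin. With the other LPI muscle libraries LPI rat 1 correlated at 0.870 to 0.943, above its values with skin of either site. LPI rats 2 to 4 correlated with SMIR muscle at 0.831 to 0.909, above their values with skin of either site, which reached at most 0.814.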

How the data were processed

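The authors deposited read counts per gene, 1 table for each model and tissue, and matching FPKM tables; the count values are whole, with no normalization. FastQC 0.11.2, STAR and StringTie are named, per the submitters' processing notes, with the builds rn6 and hg38 and no statement of how each was used; no source used here gives the counting settings. Each table holds 32623 Ensembl rat gene IDs. The deposited FPKM values of muscle served only to derive gene lengths.

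Libraries were grouped by the labels; at 0 day the column number was matched to the labelled replicate, elsewhere columns were assigned to groups only. The test was that of edgeR 4.0.16 under R 4.3.3 on counts (TMM, filterByExpr, robust glmQLFit, glmQLFTest, two-sided, Benjamini-Hochberg adjusted p under 0.05), on the groups compared alone. Alternatives were RLE and library size scaling, no filter, DESeq2 1.42.0, thinning, covariates, a replicate block, all groups of a tissue in a fit, and leaving out each library. The tests were run on simulated counts with few changed genes, a single dispersion and the same composition at both sites. That check does not cover the uneven spread and the shift of composition in these libraries.

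The 33 gene lists (475 symbols) chosen at the outset could not be used, since the reference table of 47357 genes pairs 0 with an Ensembl ID. Gene groups took their place, and the rule for printed genes gave 4 IDs. Members, lists and groups were chosen with earlier results of these data known; the injury groups, the genes of a single site and those shared with skin were chosen after the data were seen. No library was a copy of another of its group: chi-square over degrees of freedom was at least 14.8 for every pair. Muscle and skin of a rat at 0 day, paired through the labels, had deviations that correlated at −0.03 to 0.20.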

Additional observations from a re-analysis of the deposited data

Results flagged for a closer look

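In 64 sets of 4 libraries, each of a group and a quantity, 10 had a highest or lowest library far from the other 3, and chance gives about 1 in 20. None of the 10 was in uninjured muscle. In DRG of SMIR at 0 day, rat 4 stood apart in 4 quantities: 13.7% of counts in muscle-enriched genes, 3.70% in DRG-enriched genes, 2.87% in genes that fell 2 days after surgery and 26.2% in its 10 most abundant genes. In DRG of LPI at 0 day, rat 4 held 0.0665% in skin-enriched genes, where the next highest held 0.0607%. In LPI muscle at 10 days, rat 4 held 4.74% in skin-enriched genes and rat 7 held 0.593% in DRG-enriched genes. In SMIR muscle at 32 days, rat 3 held 0.202% in skin-enriched genes, 0.550% in DRG-enriched genes and 0.638% in genes raised 2 days after surgery, above the other 3 libraries in each. Their part in single genes was not tested. The site difference itself differed between muscle and skin at 0 day for 9868 of 16909 genes, by edgeR's test of the muscle difference minus the skin difference.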

How the results depend on the processing

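The count of 9159 genes called in uninjured muscle stayed within 1.5 times that value under every alternative run, from 6571 with the muscle-enriched share as a covariate to 10678 with library size scaling, but that scaling changed the split of directions to 1500 higher and 9178 lower. With the replicate number as a block, 7612 genes were called, 21 of the muscle-enriched genes higher among them; same-numbered rats of the 2 models are different animals, whose deviations correlated at −0.29 to −0.11, so the numbers do not pair them. With the rat as a block, the test of muscle minus skin called 9319 genes. For DRG at 0 day, where edgeR called 0, DESeq2 called 213, a fit of all DRG groups 3325, and leaving out a library 0 to 1. For muscle at the last time point the count of 4753 was 7138 in a fit of all muscle groups and 2061 to 8052 when a library was left out; no replicate block was run there, since the groups share few numbers. Among the named genes, ENSRNOG00000017531 alone lost its call, in 1 alternative (adjusted p = 0.0505 with the muscle-enriched share as a covariate, at a log2 fold change of 11.49 against 10.89; its adjusted p ran from 1.53e-18 to 0.00758 in the other fits that left out no library). With the SMIR libraries thinned to the LPI depth, 9047 of 14773 genes tested were called; which genes depth affects was not tested.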
